A study of Mus musculus with 18 samples.

Results

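The lysosomal gene set described here holds 40 genes for hydrolases, their activators, lysosomal membrane proteins and the transcription factors Tfeb and Tfe3. They were chosen by symbol, and all 40 matched 1 row each among the 48794 rows of the count table and passed the filter on low counts. Messenger RNA was sequenced in mouse bone marrow-derived macrophages, which are phagocytes grown from marrow cells in culture. Marrow came from male C57BL/6 mice and was matured for 7 days in M-CSF, the macrophage growth factor, at 50 ng/ml. Each of 3 groups then held 6 libraries of cells kept for 24 h in M-CSF at 10 ng/ml. Control received nothing else, IL4_IL13 received IL-4 and IL-13 at 10 ng/ml each, and IL4_IL13_TNFa received both of these and TNFa at 10 ng/ml. The labels give no age of the mice. Nothing in them ties the 6 libraries of a group to different mice or dishes. The p-values therefore describe variation among libraries, which need not be variation among mice. Libraries of the same replicate number deviated together from their group means (correlation 0.128 to 0.671 in 18 pairs), and the reported fit has no term for this. Bulk RNA cannot tell fewer cells of a type apart from less RNA per cell.

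Lysosomes are acidic organelles in which macrophages break down proteins, sugars and lipids from engulfed particles and from their own cytoplasm. Most hydrolases reach them through mannose 6-phosphate receptors, some need an activator protein such as a saposin, and a proton pump, the V-ATPase, keeps the lumen acidic. Tfeb, Tfe3 and their relatives Mitf and Tfec are transcription factors that bind E-boxes in the promoters of many lysosomal genes, and mTORC1 kinase on the lysosomal surface holds Tfeb and Tfe3 in the cytoplasm when nutrients are plentiful.

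The promoters were searched on both strands for CACGTG, the E-box at the centre of the element bound by these factors, in RefSeq windows on GRCm38.p6 running from 250 bases before to 50 after a gene's start. Of the 36 members with a window, 11 (30.6%) held the E-box, against 8.09% of 27025 genes in the table and 11.8% of the 9759 of them that passed the filter. TCACGTG, the same letters with a T before them and so always an overlapping match, occurred in 10 of the 36 members (27.8%), in 4.29% of all genes and in 7.06% of tested genes. The median GC content was 56.7% over the 42 member windows and 52.7% over all 32851 windows. The 250 bases before the start are shown for Lamp1, which held the most E-boxes, for Sgsh, which held an E-box and fell furthest, and for Psap and Ctsz, which held none and had the largest rises. E-boxes are in capitals.

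Lamp1 (chr8:13158911-13159160, plus strand): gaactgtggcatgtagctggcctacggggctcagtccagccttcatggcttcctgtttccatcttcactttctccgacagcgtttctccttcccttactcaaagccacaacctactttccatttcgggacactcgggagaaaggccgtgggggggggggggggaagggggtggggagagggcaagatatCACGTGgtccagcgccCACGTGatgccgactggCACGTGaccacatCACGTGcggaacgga
Sgsh (chr11:119355511-119355760, minus strand): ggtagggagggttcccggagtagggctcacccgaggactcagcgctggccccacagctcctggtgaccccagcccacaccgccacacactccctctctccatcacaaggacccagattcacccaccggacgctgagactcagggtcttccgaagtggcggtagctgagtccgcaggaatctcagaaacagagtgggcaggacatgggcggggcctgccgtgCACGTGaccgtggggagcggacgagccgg
Psap (chr10:60277378-60277627, plus strand): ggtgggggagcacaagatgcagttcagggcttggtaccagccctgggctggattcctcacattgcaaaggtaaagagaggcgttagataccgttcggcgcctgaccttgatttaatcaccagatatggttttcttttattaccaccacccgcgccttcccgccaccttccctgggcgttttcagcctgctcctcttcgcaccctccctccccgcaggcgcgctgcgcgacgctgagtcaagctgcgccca
Ctsz (chr2:174439040-174439289, minus strand): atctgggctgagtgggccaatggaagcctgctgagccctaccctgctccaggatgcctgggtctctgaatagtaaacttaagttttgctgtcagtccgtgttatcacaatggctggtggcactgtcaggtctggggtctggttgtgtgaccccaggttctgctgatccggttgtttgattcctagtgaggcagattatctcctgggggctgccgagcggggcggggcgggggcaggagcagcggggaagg

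The 4 Lamp1 E-boxes began 61, 45, 28 and 15 bases before the start and that of Sgsh 29 bases before it. The starts are RefSeq's. For Sgsh the gene model used for positions reaches 119355536. The last bases printed, with part of the E-box, therefore lie inside that model. The other members with an E-box were Ctsa, Ctsd, Ctsl, Gaa, Gla, Glb1, Lgmn, Mcoln1 and Naglu. A match describes these letters in this window and does not show binding.

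The libraries held 14793404 to 20056125 counts. Values are given as CPM, counts divided by library sizes that were scaled by TMM, a correction for composition. The cytokine response genes Retnla and Arg1 averaged 0.0644 and 0.470 CPM in Control and 1102 and 646 CPM in IL4_IL13, and the TNFa response genes Tnfaip3 and Nfkbia averaged 13.1 and 63.7 CPM in IL4_IL13 and 169 and 357 CPM in IL4_IL13_TNFa. All 7 macrophage markers were expressed, and 6 of them fell with IL-4 and IL-13 and all 7 with the 3 cytokines against Control. Csf1r averaged 5258, 3427 and 3812 CPM in Control, IL4_IL13 and IL4_IL13_TNFa, while Fcgr1 averaged 130.4, 21.9 and 0.999 CPM. Of the neutrophil markers, 8 of 10 stayed below 1 CPM in every library and Ly6g was at 0, while Cxcr2 averaged 0.0369 CPM in Control and 4.61 CPM in IL4_IL13 and reached 15.9 CPM in IL4_IL13_TNFa. Dendritic cell markers summed to 1.26 to 3.80 CPM in Control, 2.77 to 6.54 in IL4_IL13 and 34.9 to 37.8 in IL4_IL13_TNFa, and 3 of the 6 stayed below 1 CPM throughout. The sum in IL4_IL13_TNFa was mostly Zbtb46, which averaged 0.709, 2.76 and 33.9 CPM over the 3 groups. Flt3 went the other way, at 0.858, 0.541 and 0.290 CPM. The 8 stromal markers summed to 21.8 to 694, 63.9 to 603 and 68.2 to 402 CPM. These ranges overlapped, but the stromal sum was lower in IL4_IL13_TNFa than in IL4_IL13 for 5 of 6 replicate numbers, lower than in Control for 5 of 6, and lower in IL4_IL13 than in Control for 5 of 6. Most markers of B cells (3 of 4), T and NK cells (4 of 5), mast cells and basophils (4 of 4) and erythroid cells (4 of 4) stayed below 1 CPM. Cd3d, Fcer1a, Epx, Hba-a1 and Hbb-bs were at 0, and of the 3 eosinophil markers only Siglecf exceeded 1 CPM, at means of 1.23, 20.6 and 50.7. The part of these genes in the results was not tested. Control replicate 1 stood apart, with 1836 genes more than 2-fold away from its group's other libraries, while the next highest library had 393. For the lysosomal genes it lay below the other 5 controls for 31, above them for 5 and within their range for 4, with a median log2 difference of -0.27 and none over 2-fold.

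The lysosomal genes moved in both directions. Psap, Ctsz, Cd63, Ids and Lipa rose with IL-4 and IL-13 and again when TNFa was added, except that by library totals the second Lipa value was -0.051. Sgsh, Lgmn, Ctsl, Ctsc, Ctsd, Arsb, Ppt1, Scarb2, Man2b1, Grn, Fuca1 and Asah1 fell at both steps. Lyz2 fell with IL-4 and IL-13 and did not pass the test when TNFa was added. The summed level of the 40 genes was 35690 to 49910 CPM in Control, 35790 to 47550 in IL4_IL13 and 45090 to 50170 in IL4_IL13_TNFa, so the ranges overlapped. Between libraries of the same replicate number the sum was higher with added TNFa for 6 of 6 numbers, but for 3 of 6 by library totals. With IL-4 and IL-13 it was lower than in Control for 5 of 6 numbers, or 6 of 6 by library totals. Without Psap and Lyz2 the sum averaged 28460 ± 1780 CPM in Control, 27340 ± 2020 in IL4_IL13 and 26010 ± 751 in IL4_IL13_TNFa (SD, n = 6). Psap alone made up a mean of 10.2% of the summed level in Control, 26.6% in IL4_IL13 and 39.6% in IL4_IL13_TNFa. Lyz2 made up 20.3 to 29.3%, 6.32 to 7.32% and 5.85 to 7.12% in the same order.

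**Figure D1:**
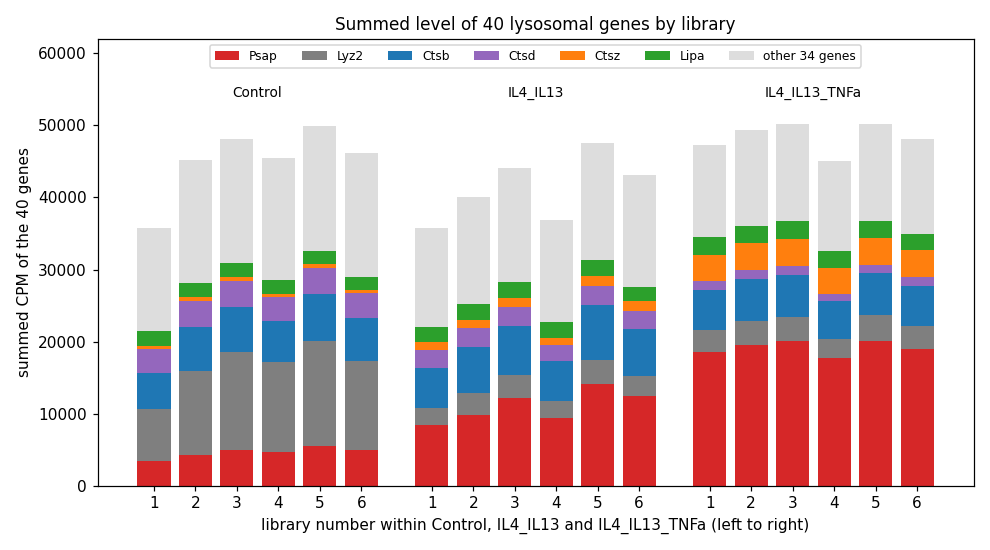
Summed CPM of the 40 lysosomal genes in each of the 18 libraries (bars), divided into 6 genes and the rest. The height of the bars overlaps between groups, while the Psap segment grows from a mean of 4628 CPM in Control to 19150 CPM in IL4_IL13_TNFa and the Lyz2 segment shrinks from 12000 to 3190 CPM.

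Fold changes were tested in edgeR's quasi-likelihood model over 13177 genes with Benjamini-Hochberg adjustment, and a gene was called at an adjusted p of at most 0.05. In IL4_IL13 against Control 10 lysosomal genes rose, 19 fell and 11 were not called. Of all genes tested 59.0% were called, 29.3% higher and 29.7% lower. When TNFa was added 10 rose, 21 fell and 9 were not called, against 59.6% called, 30.3% higher and 29.3% lower. With the 3 cytokines against Control 13 rose, 23 fell and 4 were not called, against 73.8% called, 36.4% higher and 37.3% lower. The last comparison shares its libraries with the other two, and its log2 fold changes are the sums of theirs. With the replicate block 12 members rose and 20 fell with IL-4 and IL-13, and 10 rose and 22 fell with added TNFa. The shares of all genes above belong to the fit without the block. The block counts therefore do not show whether members differed from other genes. In the fit without the block, falling members were 47.5%, 52.5% and 57.5% of the 40 genes.

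The median log2 fold change of the 40 genes was -0.14, -0.15 and -0.26 in these comparisons, against -0.0024, 0.0030 and -0.022 over all genes. Many changes were small: 21 of the 29 members called with IL-4 and IL-13 and 14 of the 31 called with added TNFa moved less than 1.5-fold. Changes of 2-fold or more that passed the test numbered 2 higher and 2 lower with IL-4 and IL-13, 2 higher and 6 lower with added TNFa, and 3 higher and 10 lower with all 3 cytokines against Control. That made 4, 8 and 13 of the 40 members, where 12.4%, 17.5% and 26.6% of all genes passed both limits. The libraries of the 2 groups did not overlap for 6 higher and 9 lower members with IL-4 and IL-13, where 12.5% and 14.2% of all genes separated in those directions. They did not overlap for 7 higher and 16 lower members with added TNFa (23.3% and 21.6% of all genes) and for 11 higher and 18 lower with the 3 cytokines (26.1% and 25.1%).

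Without Control replicate 1, 10 members rose and 21 fell with IL-4 and IL-13, and 12 rose and 24 fell with the 3 cytokines against Control; the largest shift of any member was that of Arsb, from -0.55 to -0.33 and from -2.23 to -2.01. With each library left out in turn, 3548 to 4741 of all genes were called higher and 3631 to 4340 lower with IL-4 and IL-13. For the 3 cytokines against Control these ranges were 4667 to 5209 and 4805 to 5162. Scaling by library totals in place of TMM moved the median of all genes to -0.20 when TNFa was added and to -0.27 against Control. The higher share of all calls then went from 50.9% to 27.5% and from 49.4% to 32.7%, and the lysosomal genes called became 7 higher and 28 lower, and 8 higher and 28 lower. With no filter on low counts Arsb, Fuca1 and Lamp2 were not called with IL-4 and IL-13 (adjusted p = 0.10, 0.0982 and 0.112), nor were Gusb, Naglu and Asah1 with added TNFa (0.0941, 0.15 and 0.0665) or Tpp1, Hexa and Naglu against Control (0.218, 0.0896 and 0.12). The same setting called Ctsb (0.18, adjusted p = 0.0364) and Lamp1 (0.16, adjusted p = 0.0266) higher with IL-4 and IL-13.

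**Figure D2:**
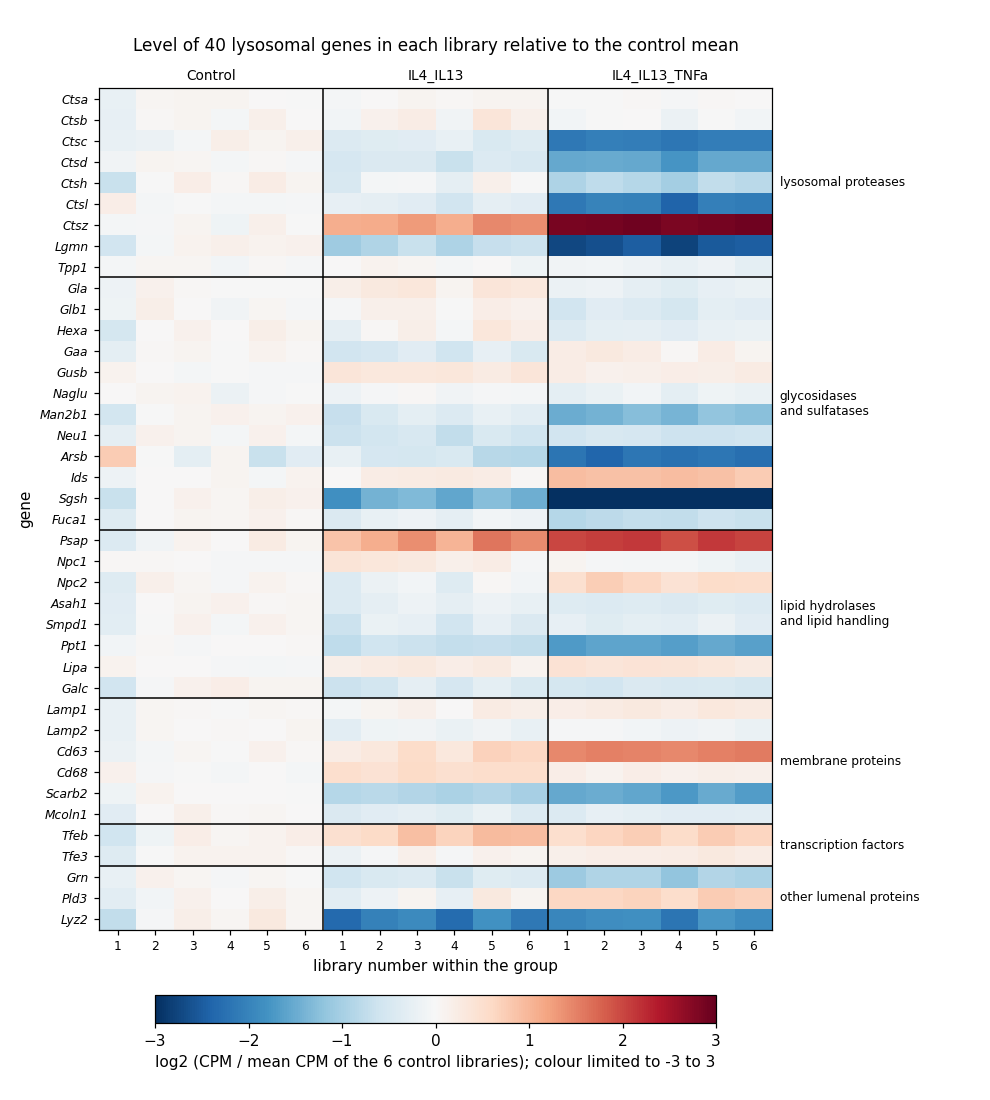
Level of each of the 40 lysosomal genes (rows, by role) in each of the 18 libraries (columns), as log2 of CPM over the mean of the 6 control libraries. Ctsz and Psap are red and Sgsh, Lgmn, Ctsl, Ctsc and Arsb are blue in the IL4_IL13_TNFa libraries, and Control replicate 1 is bluer than the other controls for most genes.

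Members were also counted by role. For every role below, the shares of all genes tested were 29.3% higher and 29.7% lower with IL-4 and IL-13. With added TNFa they were 30.3% and 29.3%. The lysosomal proteases split by enzyme. Of 9, 1 rose and 4 fell with IL-4 and IL-13, and 1 rose and 6 fell when TNFa was added. The riser was Ctsz (ENSMUSG00000016256, chromosome 2, 174427493 to 174439039 on GRCm38), cathepsin Z, a carboxypeptidase, which read 462 to 554 CPM in Control (median 493), 1065 to 1363 CPM in IL4_IL13 (median 1155) and 3529 to 3782 CPM in IL4_IL13_TNFa (median 3671). All 3 groups were separate. Its log2 fold change was 1.25 ± 0.07 (adjusted p = 1.33e-11) with IL-4 and IL-13 and 1.63 ± 0.07 (adjusted p = 2.26e-13) with added TNFa, and the 3-cytokine cells held 7.33-fold more than Control. Lgmn, the asparaginyl endopeptidase legumain, which trims several cathepsins to their mature chains, read 735 to 1226 CPM in Control (median 1180), 529 to 701 CPM in IL4_IL13 (median 630.2) and 159 to 199 CPM in IL4_IL13_TNFa (median 185). Its groups too were separate, in the other direction, with log2 fold changes of -0.81 ± 0.11 (adjusted p = 4.62e-06) and -1.79 ± 0.11 (adjusted p = 9.32e-11). Ctsl, cathepsin L, a cysteine endopeptidase, read 957 to 1143 CPM in Control (median 972), 673 to 839.5 CPM in IL4_IL13 (median 813) and 189.9 to 249 CPM in IL4_IL13_TNFa (median 239). Most of its fall came at the second step, -1.77 ± 0.07 (adjusted p = 1.93e-13), after -0.33 ± 0.07 (adjusted p = 0.000478) at the first, and no groups overlapped.

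Ctsc, cathepsin C, a dipeptidyl peptidase that activates serine proteases of immune granules, read 391 to 513 CPM in Control (median 464), 332 to 392 CPM in IL4_IL13 (median 353) and 102 to 110.2 CPM in IL4_IL13_TNFa (median 108). Control and IL4_IL13 libraries overlapped at their edges, and the IL4_IL13_TNFa libraries lay far below both. The log2 fold change of Ctsc was -0.36 ± 0.06 (adjusted p = 9.62e-05) with IL-4 and IL-13 and -1.74 ± 0.07 (adjusted p = 8.18e-14) with added TNFa. Ctsd (ENSMUSG00000007891, chromosome 7, 142375911 to 142388038), cathepsin D, the main aspartic protease of lysosomes, read 3269 to 3709 CPM in Control (median 3515), 2198 to 2653 CPM in IL4_IL13 (median 2548) and 1029 to 1238 CPM in IL4_IL13_TNFa (median 1210). It fell by steps with no overlap, -0.49 ± 0.06 (adjusted p = 7.32e-07) and then -1.08 ± 0.06 (adjusted p = 7.75e-12). Ctsh, an aminopeptidase, averaged 223, 207 and 124 CPM in Control, IL4_IL13 and IL4_IL13_TNFa and fell with added TNFa (-0.74 ± 0.12, adjusted p = 3.89e-05). Its first step was -0.11 ± 0.12 (adjusted p = 0.462), and with Control replicate 1 left out it was -0.21 (adjusted p = 0.0324). Ctsb, the abundant cysteine protease cathepsin B, averaged 5882, 6398 and 5651 CPM and was not called in any comparison of the reported fit. With added TNFa its log2 fold change was -0.18 ± 0.08 (adjusted p = 0.0576), or -0.17 (adjusted p = 0.00925) with the replicate number as a block. It was also called when Control replicate 1 (adjusted p = 0.0224), IL4_IL13 replicate 1 (0.0232) or IL4_IL13 replicate 4 (0.0207) was left out, and by library totals (-0.38, adjusted p = 0.000294). This fall was called too with DESeq2 (adjusted p = 0.0444), with a filter at 5 CPM in 6 libraries (0.0479), with only the groups compared (0.0305) and without the 3 libraries numbered 1 (0.00981). By library totals Ctsb was also called lower against Control (-0.31, adjusted p = 0.00162). Ctsa, a carboxypeptidase that stabilises Neu1 and Glb1, averaged 984, 1014 and 984 CPM and was not called either, except by library totals, where it was -0.25 with added TNFa (adjusted p = 0.000336). Pltp overlaps Ctsa on the other strand and held 54.1% of its counts, so Ctsa is uncertain. Tpp1, a tripeptidyl peptidase, averaged 286, 286 and 255 CPM and fell slightly with added TNFa (-0.17 ± 0.047, adjusted p = 0.00454).

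**Figure D3:**
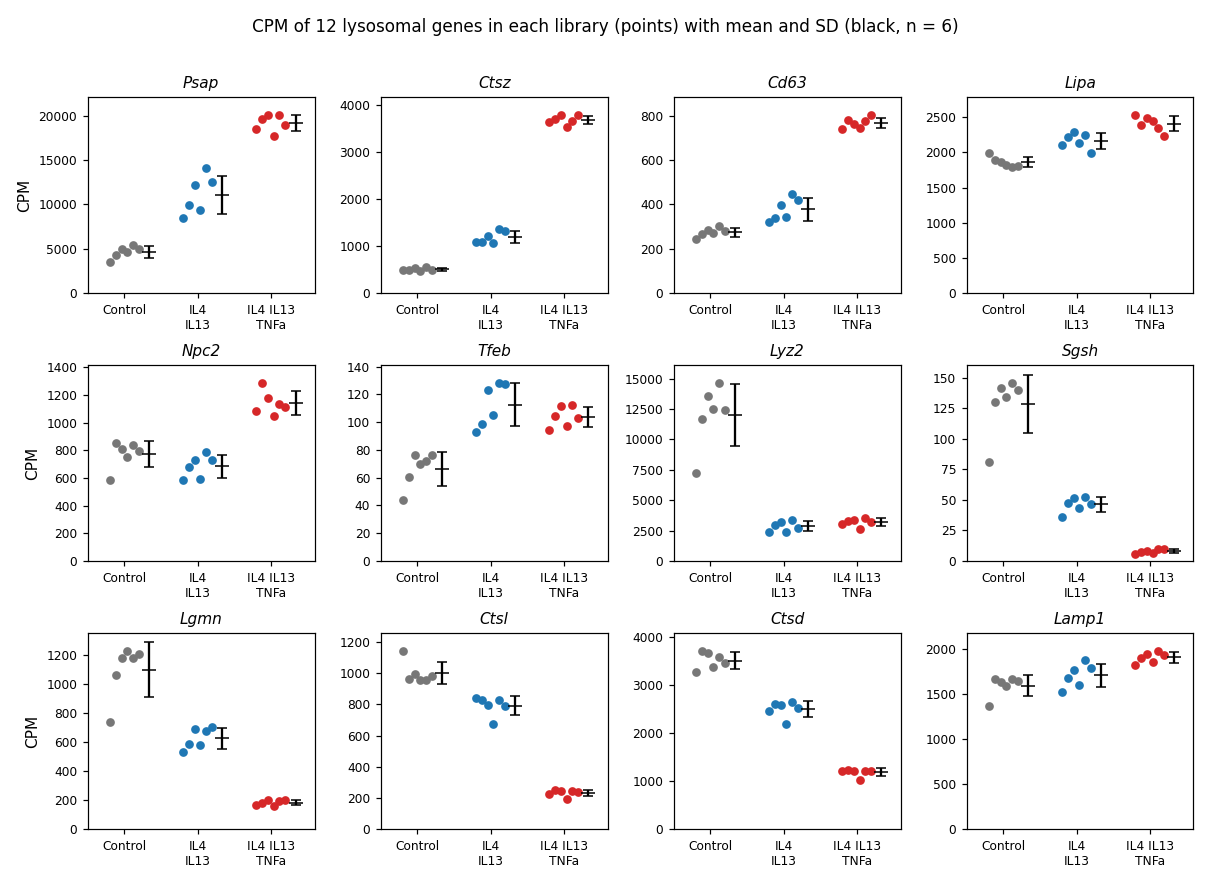
CPM of 12 lysosomal genes in each library (points, 6 per group) with the mean and SD (black), on linear axes that start at 0. Psap, Ctsz and Cd63 step upward over the 3 groups, Sgsh, Lgmn, Ctsl and Ctsd step downward, and Lyz2 is low in both cytokine groups.

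Among the 12 glycosidases and sulfatases 3 rose and 6 fell with IL-4 and IL-13, and 2 rose and 9 fell with added TNFa. Sgsh (ENSMUSG00000005043, chromosome 11, 119343425 to 119355536), the sulfatase that removes N-linked sulfate from heparan sulfate, had the deepest fall of the 40 genes. It read 81.2 to 146 CPM in Control (median 137), 36.2 to 52.8 CPM in IL4_IL13 (median 47.4) and 5.82 to 10.1 CPM in IL4_IL13_TNFa (median 7.79). No groups overlapped. The log2 fold changes were -1.47 ± 0.14 (adjusted p = 6.05e-08) and -2.53 ± 0.16 (adjusted p = 8.39e-11), and the 3-cytokine cells held 16.0-fold less than Control. Arsb, arylsulfatase B, which acts on dermatan and chondroitin sulfate, read 86.2 to 233 CPM in Control (median 124), 75.8 to 118 CPM in IL4_IL13 (median 95.0) and 26.5 to 30.7 CPM in IL4_IL13_TNFa (median 29.5). Control and IL4_IL13 overlapped, and Control replicate 1 held the highest Arsb value. Its log2 fold changes were -0.55 ± 0.18 (adjusted p = 0.0123) and -1.68 ± 0.18 (adjusted p = 2.68e-07). Man2b1, the alpha-mannosidase that trims glycoprotein sugars, read 939.5 to 1513 CPM in Control (median 1454), 848 to 1186 CPM in IL4_IL13 (median 1069) and 493 to 603 CPM in IL4_IL13_TNFa (median 544), and its log2 fold changes were -0.39 ± 0.10 (adjusted p = 0.00311) and -0.94 ± 0.10 (adjusted p = 2.23e-07); the IL4_IL13_TNFa libraries lay below all others.

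Ids, iduronate 2-sulfatase, which like Sgsh acts on heparan sulfate, moved the opposite way. It read 130.2 to 157 CPM in Control (median 147), 148 to 177 CPM in IL4_IL13 (median 169) and 248 to 279 CPM in IL4_IL13_TNFa (median 269). IL4_IL13_TNFa libraries lay above both other groups, which overlapped. The log2 fold changes of Ids were 0.17 ± 0.06 (adjusted p = 0.0118) and 0.71 ± 0.06 (adjusted p = 2.01e-09). Gaa, the acid glucosidase that degrades glycogen, read 92.1 to 119.9 CPM in Control (median 115), 74.3 to 95.1 CPM in IL4_IL13 (median 80.5) and 115 to 136 CPM in IL4_IL13_TNFa (median 130.1). It fell with IL-4 and IL-13 (-0.44 ± 0.07, adjusted p = 3.66e-05) and rose with added TNFa (0.62 ± 0.07, adjusted p = 4.43e-07), which left 0.18 ± 0.07 (adjusted p = 0.0308) against Control. That last call did not hold when Control replicate 1 (adjusted p = 0.0518) or IL4_IL13_TNFa replicate 2 (0.0623) was left out, and by library totals the value was -0.072. Neu1, the sialidase, read 87.7 to 115 CPM in Control (median 106), 62.6 to 75.9 CPM in IL4_IL13 (median 71.1) and 68.4 to 75.1 CPM in IL4_IL13_TNFa (median 69.6). It fell at the first step (-0.58 ± 0.06, adjusted p = 4.5e-07) and its value at the second was 0.0083 ± 0.06 (adjusted p = 0.921), or -0.20 (adjusted p = 0.0126) by library totals, where it was called lower.

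Gusb, beta-glucuronidase, read 578 to 652 CPM in Control (median 593), 719 to 773 CPM in IL4_IL13 (median 757) and 654 to 711 CPM in IL4_IL13_TNFa (median 686). All 3 groups were separate, and Gusb rose with IL-4 and IL-13 (0.33 ± 0.039, adjusted p = 1.02e-06) and fell with added TNFa (-0.14 ± 0.039, adjusted p = 0.00404). Against Control the 3-cytokine value of Gusb was 0.18 ± 0.039 (adjusted p = 0.00029), or -0.064 (adjusted p = 0.148) by library totals. Gla, alpha-galactosidase A, read 90.7 to 109.8 CPM in Control (median 99.4), 106 to 128 CPM in IL4_IL13 (median 123) and 78.3 to 90.6 CPM in IL4_IL13_TNFa (median 85.9). It too rose (0.26 ± 0.05, adjusted p = 0.000488) and then fell (-0.49 ± 0.05, adjusted p = 2.64e-07). Of the others, Glb1 (beta-galactosidase), Hexa (a hexosaminidase A subunit), Naglu (a heparan sulfate glucosaminidase) and Fuca1 (a fucosidase) fell with added TNFa by 0.51, 0.37, 0.14 and 0.51 on the log2 scale. With IL-4 and IL-13 only Fuca1 of these passed the test (-0.22 ± 0.08, adjusted p = 0.0192), which did not hold when Control replicate 5 (adjusted p = 0.0544) or IL4_IL13 replicate 1 (0.0530) was left out. With the replicate block Glb1 was called at that step (0.10, adjusted p = 0.0161). Naglu with added TNFa was not called when IL4_IL13 replicate 3 (adjusted p = 0.0615), IL4_IL13_TNFa replicate 1 (0.0651) or IL4_IL13_TNFa replicate 4 (0.0654) was left out. Against Control the Hexa call (-0.28 ± 0.11, adjusted p = 0.0225) did not hold when Control replicate 5 (adjusted p = 0.0536) or IL4_IL13_TNFa replicate 1 (0.0533) was left out. Tmppe shares exonic bases with Glb1 on the same strand and held 63.1% of its counts, so Glb1 is uncertain.

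The 8 genes for lipid breakdown were led by Psap (ENSMUSG00000004207, chromosome 10, 60277627 to 60302597), which encodes prosaposin, the precursor of the saposins that present sphingolipids to their hydrolases. It read 3483 to 5452 CPM in Control (median 4773), 8427 to 14090 CPM in IL4_IL13 (median 11010) and 17730 to 20060 CPM in IL4_IL13_TNFa (median 19260). All 3 groups were separate, with the widest relative spread of any member in IL4_IL13 (coefficient of variation 19.6%). Psap rose by 1.26 ± 0.12 (adjusted p = 4.71e-08) on the log2 scale with IL-4 and IL-13 and by 0.79 ± 0.12 (adjusted p = 1.04e-05) with added TNFa, 4.14-fold over Control in all. Npc2, a soluble carrier of cholesterol, read 588 to 855 CPM in Control (median 803), 583 to 790.3 CPM in IL4_IL13 (median 704) and 1048 to 1287 CPM in IL4_IL13_TNFa (median 1125). The first 2 groups overlapped (-0.18 ± 0.09, adjusted p = 0.0986), and the IL4_IL13_TNFa libraries lay above both (0.74 ± 0.09, adjusted p = 9.64e-07 over IL4_IL13). The first step of Npc2 was called as a fall with the replicate block (-0.17, adjusted p = 0.0198). It was also called with Control replicate 1 left out (-0.24, adjusted p = 0.0051), with IL4_IL13 replicate 5 left out (-0.22, adjusted p = 0.0476) and by library totals (-0.22, adjusted p = 0.0436). Its membrane partner Npc1, which passes cholesterol out of the lysosome, read 334 to 349 CPM in Control (median 340), 332 to 444 CPM in IL4_IL13 (median 409.5) and 293 to 361 CPM in IL4_IL13_TNFa (median 327). Npc1 moved the other way, 0.23 ± 0.06 (adjusted p = 0.00398) and then -0.30 ± 0.06 (adjusted p = 0.000382), with overlapping libraries at both steps. Rmc1, on the other strand, shares 511 exonic bases with Npc1 and held a mean of 1090 counts against 6065 for Npc1.

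Ppt1, a thioesterase that removes palmitate from proteins, read 158 to 171 CPM in Control (median 168), 97.7 to 109.7 CPM in IL4_IL13 (median 102) and 51.1 to 57.8 CPM in IL4_IL13_TNFa (median 54.8). It fell without overlap at both steps, -0.70 ± 0.040 (adjusted p = 4.28e-11) and -0.92 ± 0.041 (adjusted p = 6.23e-13). Ppt1 shares 129 exonic bases with Cap1 on the other strand, which held 750% of its counts, so its level is uncertain. Lipa, the acid lipase that frees cholesterol from its esters, read 1797 to 1993 CPM in Control (median 1847), 1990 to 2296 CPM in IL4_IL13 (median 2175) and 2235 to 2533 CPM in IL4_IL13_TNFa (median 2420). Its rises were small, 0.22 ± 0.046 (adjusted p = 0.000665) and 0.15 ± 0.046 (adjusted p = 0.00747), with overlap at each step, and by library totals the second was -0.051. Asah1 (acid ceramidase), Smpd1 (acid sphingomyelinase) and Galc (galactosylceramidase) fell with IL-4 and IL-13, by 0.24, 0.38 and 0.45 on the log2 scale (adjusted p = 0.00361, 0.00079 and 0.000839). With added TNFa Smpd1 and Galc were not called (0.09 and -0.05); by library totals Galc was, at -0.26 (adjusted p = 0.0296), and Smpd1 was -0.11. Asah1 fell by 0.16 there (adjusted p = 0.0327), and this call did not hold when any 1 of 6 libraries was left out, namely IL4_IL13 replicates 3 and 5 and IL4_IL13_TNFa replicates 2, 3, 4 and 6 (adjusted p from 0.0503 to 0.0717).

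**Figure D4:**
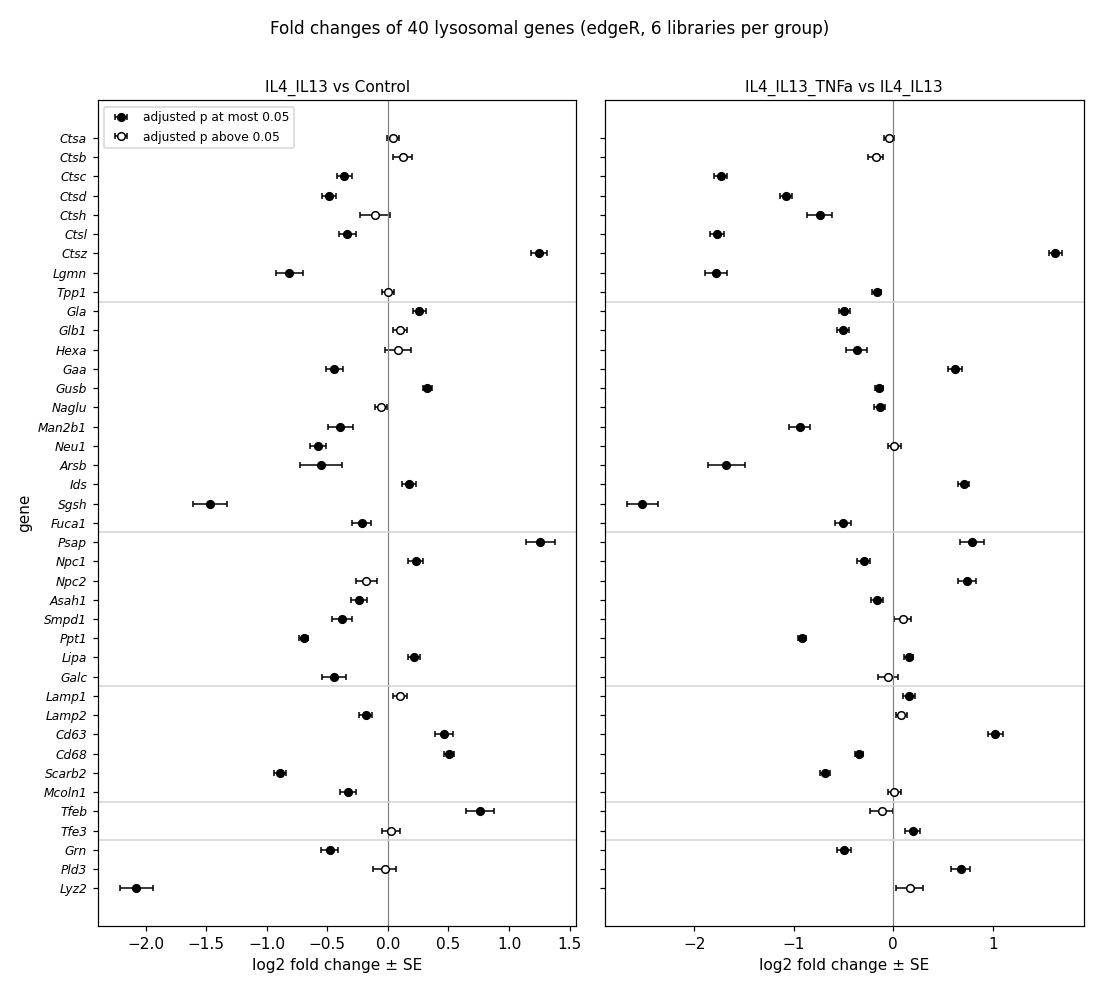
Log2 fold change of each of the 40 genes (points) with its standard error (bars) for IL4_IL13 against Control (left) and for IL4_IL13_TNFa against IL4_IL13 (right), from edgeR with 6 libraries per group. Filled points passed an adjusted p of 0.05. Ctsz and Psap lie to the right in both panels and Sgsh and Lgmn to the left in both, while Lyz2 is far left in the first panel and near 0 in the second.

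Of 6 membrane proteins 2 rose and 3 fell with IL-4 and IL-13, and 2 rose and 2 fell with added TNFa. Cd63, a tetraspanin of late endosomes and lysosomes, read 242 to 300.4 CPM in Control (median 275), 319 to 445 CPM in IL4_IL13 (median 370.2) and 742 to 804 CPM in IL4_IL13_TNFa (median 771). The groups were separate and the rise was larger at the second step, 1.03 ± 0.07 (adjusted p = 6.54e-10), than at the first, 0.46 ± 0.07 (adjusted p = 3.05e-05), though the steps were not tested against each other. Cd68, a glycoprotein typical of macrophage lysosomes, read 731 to 828 CPM in Control (median 752), 1031 to 1126 CPM in IL4_IL13 (median 1081) and 819 to 875 CPM in IL4_IL13_TNFa (median 853). It rose with IL-4 and IL-13 (0.51 ± 0.040, adjusted p = 3.64e-09) and fell with added TNFa (-0.34 ± 0.039, adjusted p = 4.13e-07), with no overlap at either step. Scarb2, an integral protein of the lysosomal membrane, read 301 to 354 CPM in Control (median 328), 164 to 188 CPM in IL4_IL13 (median 178) and 99.0 to 116 CPM in IL4_IL13_TNFa (median 112). Its groups were separate and its log2 fold changes were -0.89 ± 0.050 (adjusted p = 2.68e-11) and -0.69 ± 0.050 (adjusted p = 6.7e-10).

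Lamp1 (ENSMUSG00000031447, chromosome 8, 13159161 to 13175338), the most familiar marker of the lysosomal membrane, read 1366 to 1665 CPM in Control (median 1634), 1524 to 1879 CPM in IL4_IL13 (median 1724) and 1824 to 1976 CPM in IL4_IL13_TNFa (median 1915). Its libraries overlapped between neighbouring groups. The log2 fold change of Lamp1 was 0.10 ± 0.06 (adjusted p = 0.141) with IL-4 and IL-13, or 0.10 (adjusted p = 0.0395) with the replicate block, and 0.16 ± 0.06 (adjusted p = 0.0234) with added TNFa. The second call did not hold when IL4_IL13 replicate 1 (adjusted p = 0.0584) or IL4_IL13 replicate 4 (0.0545) was left out, and by library totals the value was -0.047. With a filter at 5 CPM in 6 libraries it was not called either (0.14, adjusted p = 0.08). Against Control Lamp1 rose by 0.26 ± 0.06 (adjusted p = 0.000506), or 0.0096 (adjusted p = 0.888) by library totals. Lamp2, its relative, averaged 739.5, 652 and 689 CPM in Control, IL4_IL13 and IL4_IL13_TNFa and fell with IL-4 and IL-13 (-0.18 ± 0.05, adjusted p = 0.00741). Against Control the 3-cytokine value of Lamp2 was -0.10 ± 0.05 (adjusted p = 0.0929), and -0.14 (adjusted p = 0.00595) when Control replicate 1 was left out. Mcoln1, the calcium channel of lysosomes, averaged 108, 85.9 and 86.6 CPM, fell at the first step (-0.33 ± 0.07, adjusted p = 0.000303) and stood at 0.011 ± 0.07 (adjusted p = 0.895) at the second. By library totals Mcoln1 (-0.19, adjusted p = 0.0161) and Lamp2 (-0.13, adjusted p = 0.0469) were called lower with added TNFa.

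Tfeb read 44.0 to 76.2 CPM in Control (median 70.7), 92.9 to 128 CPM in IL4_IL13 (median 114) and 94.3 to 112 CPM in IL4_IL13_TNFa (median 104). Control lay below both other groups, which overlapped. The transcript rose with IL-4 and IL-13 (0.76 ± 0.12, adjusted p = 1.82e-05) and was not called when TNFa was added (-0.12 ± 0.11, adjusted p = 0.392), though by library totals it was (-0.32, adjusted p = 0.0201). Tfe3 read 155 to 219.5 CPM in Control (median 212), 179.7 to 227 CPM in IL4_IL13 (median 206) and 226 to 251 CPM in IL4_IL13_TNFa (median 235). Its log2 fold change was 0.025 ± 0.07 (adjusted p = 0.78) and then 0.19 ± 0.07 (adjusted p = 0.0312), with overlap at both steps. That second call did not hold when Control replicate 5 (adjusted p = 0.0501), IL4_IL13 replicates 1 (0.0756), 2 (0.0585) or 4 (0.0591), or IL4_IL13_TNFa replicate 5 (0.0625) was left out, and by library totals the value was -0.013. With a filter at 5 CPM in 6 libraries Tfe3 was not called at the second step (0.17, adjusted p = 0.0839). Against Control that filter gave 0.17 (adjusted p = 0.0807). The transcript does not show where these factors lie in the cell, which is how mTORC1 controls them.

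The other 3 lumenal proteins each took a different course. Lyz2 (ENSMUSG00000069516, chromosome 10, 117277331 to 117282321), the lysozyme of myeloid cells, which cuts bacterial cell walls, read 7229 to 14640 CPM in Control (median 12450), 2398 to 3410 CPM in IL4_IL13 (median 2827) and 2639 to 3572 CPM in IL4_IL13_TNFa (median 3261). Both cytokine groups lay below Control and overlapped each other. Lyz2 fell by 2.08 ± 0.14 (adjusted p = 4.36e-10) on the log2 scale with IL-4 and IL-13, 4.22-fold, and its log2 fold change with added TNFa was 0.16 ± 0.13 (adjusted p = 0.305). Its near-identical neighbour Lyz1 averaged 4.86, 1.36 and 1.31 CPM, and reads could be split between the 2. Neutrophils also express Lyz2, and whether they had a part in its change was not tested. Of the neutrophil markers 8 of 10 stayed below 1 CPM in all libraries, and S100a8 exceeded it at its highest. Cxcr2 averaged 0.0369 CPM in Control and 4.61 CPM in IL4_IL13 and reached 15.9 CPM in IL4_IL13_TNFa. Grn, progranulin, a glycoprotein cut into granulins in lysosomes, read 1955 to 2518 CPM in Control (median 2329), 1442 to 1786 CPM in IL4_IL13 (median 1689) and 1006 to 1254 CPM in IL4_IL13_TNFa (median 1207). It fell without overlap at both steps, -0.48 ± 0.07 (adjusted p = 1.56e-05) and -0.49 ± 0.07 (adjusted p = 8.35e-06). Pld3, an exonuclease that degrades single-stranded nucleic acid, read 179.7 to 250.4 CPM in Control (median 227), 178 to 271 CPM in IL4_IL13 (median 218) and 319.5 to 374 CPM in IL4_IL13_TNFa (median 348). It did not pass the test with IL-4 and IL-13 (-0.027 ± 0.09, adjusted p = 0.814) and rose with added TNFa (0.68 ± 0.09, adjusted p = 5e-06), above all other libraries.

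With the 3 cytokines together against Control the deepest falls were those of Sgsh, -4.00 ± 0.16 (adjusted p = 8.05e-14), and Lgmn, -2.60 ± 0.12 (adjusted p = 2.52e-13). Arsb (-2.23 ± 0.19, adjusted p = 3.71e-09), Ctsl (-2.11 ± 0.07, adjusted p = 6.13e-15), Ctsc (-2.10 ± 0.07, adjusted p = 2.03e-15), Lyz2 (-1.91 ± 0.14, adjusted p = 3.67e-10), Ppt1 (-1.61 ± 0.041, adjusted p = 1.03e-16) and Scarb2 (-1.58 ± 0.05, adjusted p = 2.27e-15) came next, and Ctsd stood at -1.57 ± 0.06 (adjusted p = 1.74e-14). The rises were led by Ctsz (2.87 ± 0.07, adjusted p = 5.61e-17), Psap (2.05 ± 0.12, adjusted p = 1.82e-11) and Cd63 (1.49 ± 0.07, adjusted p = 1.61e-12). Ids (0.88 ± 0.06, adjusted p = 4.57e-11), Pld3 (0.65 ± 0.09, adjusted p = 5.09e-06), Tfeb (0.65 ± 0.12, adjusted p = 5.59e-05), Npc2 (0.56 ± 0.09, adjusted p = 1.67e-05) and Lipa (0.37 ± 0.046, adjusted p = 8.22e-07) followed, and Tfe3 stood at 0.22 ± 0.07 (adjusted p = 0.0126), or -0.03 by library totals.

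Levels between genes were compared as mean CPM per kb of the longest coding transcript. In Control the order was led by Lyz2 at 9122, Psap at 1742, Ctsd at 1650 and Ctsb at 1240 CPM per kb. In IL4_IL13 it was Psap at 4165, Lyz2 at 2164, Ctsb at 1349 and Ctsd at 1177. In IL4_IL13_TNFa it was Psap at 7208, Ctsz at 2551, Lyz2 at 2424 and Ctsb at 1191. Ctsz thus moved from the 12th place to the 6th and the 2nd, and Lgmn from the 9th to the 12th and the 19th. Sgsh went from the 37th place to the 40th, at 1.85 CPM per kb in IL4_IL13_TNFa. Neighbours in these orders were not tested against each other. The replicates were closest in IL4_IL13_TNFa, where the median coefficient of variation of the 40 genes was 5.12%, against 9.03% in Control and 8.18% in IL4_IL13.

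Members with an E-box in the window did not all move in one direction, though more fell than rose. Of the 11, 1 rose and 6 fell with IL-4 and IL-13 and 2 rose and 7 fell with added TNFa, with median log2 fold changes of -0.33 and -0.49. Of all genes tested 29.3% were called higher and 29.7% lower at the first step, and 30.3% and 29.3% at the second. Of the 25 members with a window and no E-box, 8 rose and 12 fell and then 8 rose and 11 fell, with medians of -0.18 and -0.054. Lamp1, with 4 E-boxes, stood at 0.10 and 0.16 (-0.047 by library totals), Ctsd with 2 at -0.49 and -1.08, and Sgsh with 1 at -1.47 and -2.53.

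Other lysosomal genes were taken from lists by function. Of all genes tested 59.0%, 59.6% and 73.8% were called in the 3 comparisons. Higher were 29.3%, 30.3% and 36.4% and lower 29.7%, 29.3% and 37.3%, and these shares apply to each list below. Of the V-ATPase list 18 of 19 symbols matched and all 18 were tested. In it 11 rose and 2 fell with IL-4 and IL-13, 13 rose and 2 fell with added TNFa, and 17 rose and none fell with the 3 cytokines against Control, with medians of 0.22, 0.41 and 0.69 on the log2 scale. The rise at the first step was led by Atp6v0d2, a subunit found in osteoclasts and some macrophages, at 5.14 ± 0.20 (adjusted p = 2.7e-13), and by Atp6v0a1 at 1.61 ± 0.07 (adjusted p = 3.72e-13). Both fell at the second (-0.67 and -0.49), where Atp6v0c led at 1.02 ± 0.08 (adjusted p = 3.59e-09), followed by Atp6v0e at 0.82; these had risen by 0.35 and 0.33 at the first. The falls at the first step were those of Atp6v0b (-0.39) and Atp6ap1 (-0.25). At the second step Atp6v0b rose by 0.63 and Atp6ap1 by 0.17, the latter -0.034 by library totals. Scaled by TMM, the subunits summed to 3641 to 4133 CPM in Control, 5050 to 6044 in IL4_IL13 and 6145 to 6400 in IL4_IL13_TNFa, with no overlap. These sums were not computed by library totals, so the separation is shown for the TMM scale only. By library totals the median stayed above 0 (0.17, 0.20 and 0.44), with 12 higher and 4 lower at the second step and 12 higher and 1 lower against Control.

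Of 32 further lysosomal hydrolases and activators 15 rose and 10 fell with IL-4 and IL-13, 11 rose and 10 fell with added TNFa, and 14 rose and 12 fell with the 3 cytokines. Ctsk, cathepsin K, a collagen-cutting protease, rose at both steps (1.58 and 1.75) at means of 2.71, 8.05 and 27.1 CPM. Acp5, an acid phosphatase, also rose at both, at means of 2.72, 5.86 and 14.4 CPM. Plbd1 and Ifi30, a thiol reductase for antigen processing, led the second at 2.97 ± 0.34 (adjusted p = 5.04e-07) and 2.14 ± 0.07 (adjusted p = 1.43e-14), after rises of 1.65 and 0.91 at the first. Ctsf, cathepsin F, fell at both steps (-1.03 and -1.25), and the phospholipase Pla2g15 fell at the second (-1.42). Acp2 fell at the first (-0.75) and rose at the second (1.49), to above Control. Of 24 further membrane proteins and transporters 8 rose and 11 fell at the first step and 9 rose and 9 fell at the second, and 9 rose and 11 fell against Control. Mfsd12 (1.32 and 0.44) and Cd164 (0.58 and 1.28) rose at both steps. The metal transporter Slc11a1 (-1.12 and 1.26) and Gpnmb (-0.71 and 1.22) fell at the first and rose at the second. Among genes of at least 5 CPM these 2 had the largest falls at the first step; below that level Laptm4b (-0.998) and Abcb9 (-0.74) fell too. The calcium channel Tpcn1 (-0.47 and -1.66) and Laptm5 (-0.25 and -1.07) fell at both.

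Of 10 genes that sort lysosomal enzymes 4 rose and 3 fell, 6 rose and 2 fell, and 7 rose and 3 fell in the 3 comparisons. Igf2r, the large mannose 6-phosphate receptor, rose at both steps (0.68 ± 0.08, adjusted p = 1.42e-06 and 1.09 ± 0.08, adjusted p = 1.6e-09), and Vps35 rose at the first (0.24). Gga2 fell at the first (-0.22) and rose at the second (1.48). The endocytic receptor Lrp1 fell at both steps (-0.59 and -1.53), Gga3 at the first (-0.30) and sortilin, Sort1, at the second (-1.81). Among 19 relatives of Tfeb and genes of mTORC1 control 8 rose and 7 fell, 6 rose and 3 fell, and 10 rose and 6 fell. Tfec averaged 16.3, 54.6 and 156 CPM over the 3 groups and rose by 1.74 ± 0.07 (adjusted p = 1.07e-13) and 1.51 ± 0.06 (adjusted p = 2.53e-13). Mitf rose by 0.95 at the first step and 0.28 at the second (0.077, not called, by library totals). Mtor rose by 0.41 at the second. Flcn fell at the first step (-0.68), while its second value of -0.29 was not called, and Fnip1 (-0.38 and -0.28) and Fnip2 (-0.45 and -1.10) fell at both; these encode folliculin, which acts on mTORC1 signalling at the lysosome, and its partners.

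Of 14 autophagy genes 2 rose and 7 fell, 5 rose and 4 fell, and 6 rose and 7 fell. Atg7 (0.45) and Atg5 (0.15, or 0.11 and not called by library totals) rose with IL-4 and IL-13, while Ulk1 (-0.78) and Atg9a (-0.61) fell. With added TNFa Sqstm1, the cargo receptor p62, rose by 1.06 after a first-step value of -0.51, and Atg5 rose by 0.68. Wipi1 fell at both steps (-0.33 and -0.90), and Ulk1 fell again (-0.79). Cystatins inhibit cysteine cathepsins, and 3 of 8 passed the filter. Cstb rose (0.42 ± 0.06, adjusted p = 6.39e-06 and 1.40 ± 0.06, adjusted p = 3.1e-13) and Cst3 fell (-0.55 ± 0.11, adjusted p = 0.000243 and -0.80 ± 0.11, adjusted p = 2.77e-06). Cst7 averaged 0.245, 2.40 and 32.4 CPM over the groups and its log2 fold change with added TNFa was 3.74 ± 0.19 (adjusted p = 5.45e-12). By library totals the second-step counts became 8 higher and 16 lower for the further hydrolases, 7 and 13 for the membrane proteins, 4 and 3 for the sorting genes, 2 and 10 for the mTORC1 list and 2 and 8 for the autophagy genes. The medians at that step went from 0.017 to -0.19, from -0.034 to -0.24, from 0.24 to 0.035, from 0.048 to -0.16 and from 0.036 to -0.17 in the same order.

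**Figure D5:**
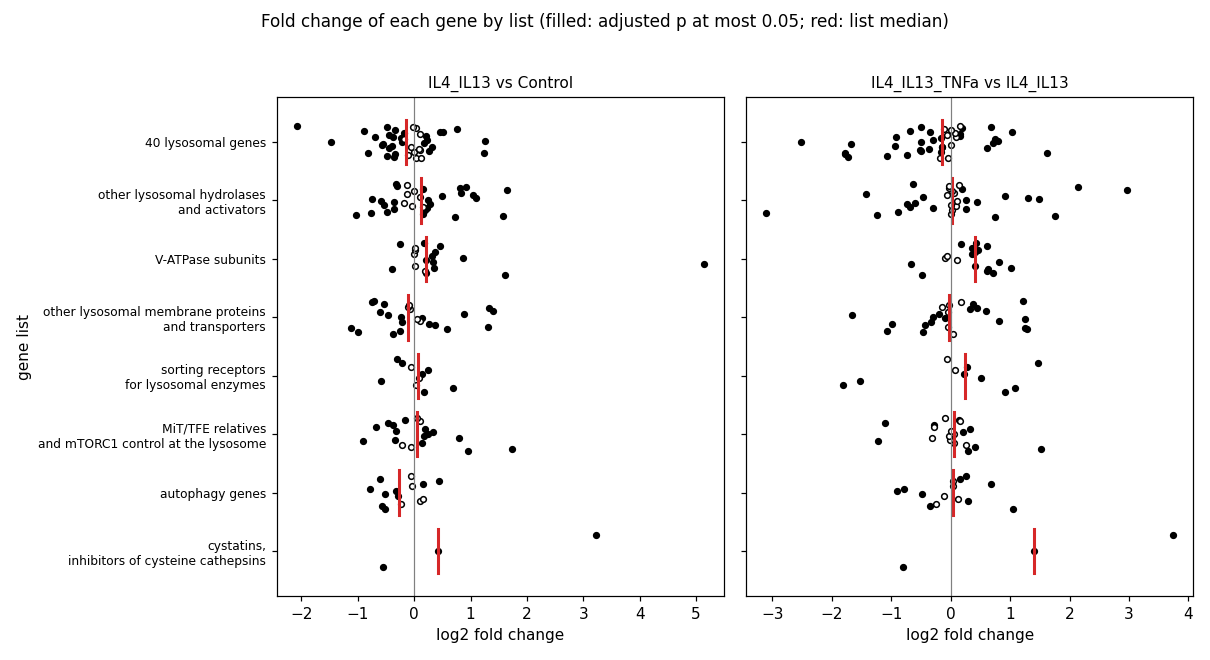
Log2 fold change of every tested gene (points) of the 40-gene set and of 7 further lists, for IL4_IL13 against Control (left) and for IL4_IL13_TNFa against IL4_IL13 (right); filled points passed an adjusted p of 0.05 and red bars are medians. V-ATPase subunits lie mostly to the right in both panels, also by library totals, while the 40 lysosomal genes spread to both sides.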

How the data were processed

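RNA was measured in 18 libraries of mouse bone marrow-derived macrophages, 6 in each of 3 groups, which were taken from the sample titles. The authors deposited raw counts per gene, whole numbers with 1 column per library and no pooling; 0 columns had no sample. Libraries were made with a directional poly(A) kit, per the labels' protocols. Per the submitters' processing notes, which give no roles, the tools were FastQC 0.11.5, RSEM 1.3.0, featureCounts 1.5.1, bcl2fastq 2.20.0.422 and STAR (2.5.2, also written 2.5.2b), and the builds were GRCm38 and mm10. Whether the counting used strand is not given in the sources used here. Genes that overlap others are therefore uncertain: 12 members share exonic bases with another gene, and 4 of them with one that held over 10% of their own counts.

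Of 48794 rows, 48434 had a symbol and 360 did not; totals ran from 14793404 to 20056125 counts. Genes were filtered with a minimum count of 10, which left 13177. All 18 libraries were fitted together with edgeR 4.0.16 (TMM, robust quasi-likelihood test, Benjamini-Hochberg adjustment over all genes tested, threshold 0.05), and each standard error is the absolute log2 fold change divided by sqrt(F). R 4.3.3, Python 3.11.15, numpy 2.4.6 and pandas 2.3.3 were used. Alternatives were DESeq2 1.42.0 and its size factors, limma 3.58.1 voom, library totals, no filter or 5 CPM in 6 libraries, a replicate block, only the groups compared, and leaving out each library or the 3 numbered 1. On simulated data 79.4%, 74.6% and 82.5% of genes changed 1.5-fold were recovered in the comparisons of IL4_IL13 with Control (12681 genes run), IL4_IL13_TNFa with IL4_IL13 (12632) and IL4_IL13_TNFa with Control (12709), 98.4%, 96.9% and 95.5% of those changed 2-fold, and 10, 9 and 12 unchanged genes were called. In that simulation few genes changed, in both directions, and every gene had the same spread. It held no replicate effect and no outlying library, so its rates need not hold for the real counts. No 2 libraries of a group were copies: their counts differed with a chi-square of at least 2.72 per degree of freedom in all 45 pairs.

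Libraries with the same replicate number deviated together from their group means in each of 18 pairs (correlation 0.128 to 0.671), so the numbers pair the libraries as far as these data show, and not by a label. The reported fit has no replicate term; the fit with the number as a block is an alternative, whose value is given where it changed a call.

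The members and gene lists were chosen with earlier results of these data known. Named are, in each comparison, up to 8 members with the largest rise and 8 with the largest fall past the threshold, Tfeb, Tfe3, Lamp1, Lyz2, Ctsd and Ctsl throughout, and from each further list up to 2 rises and 2 falls with at least 5 CPM in the higher group; the remaining members were named as well because all 40 are described. Gene positions are those of the GRCm38 reference annotation, and promoter sequences are RefSeq's. Results for a few items that are withheld are not reported here.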

Additional observations from a re-analysis of the deposited data

Results flagged for a closer look

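In each of the 120 sets of 6 libraries (40 genes in 3 groups) the gap between an extreme library and its nearest neighbour was compared with the whole range, a test that chance passes in about 1 of 20 sets. The gap exceeded the 95% critical value in 21 sets, and 17 of these were in Control replicate 1. Among the proteases that library held the lowest control value of Ctsa (837.2 CPM, next 982.4), Ctsh (139.9, next 219.9) and Lgmn (734.6, next 1063), and the highest of Ctsl (1143, next 996.4). Among the glycosidases and sulfatases it was lowest for Hexa (646.3 CPM, next 946.3), Gaa (92.09, next 111.6), Man2b1 (939.5, next 1373), Sgsh (81.2, next 130.1) and Fuca1 (198.4, next 262.2). Among the genes of lipid breakdown it was lowest for Npc2 (587.9 CPM, next 755.6), Asah1 (344.8, next 437.3) and Galc (136.0, next 198.5). Of the membrane proteins, Lamp1 (1366 CPM, next 1587), Lamp2 (634.9, next 742.1) and Mcoln1 (85.06, next 108.8) were lowest there and Cd68 was highest (827.8, next 766.3). Tfe3 was lowest there too (155.0 CPM, next 202.9).

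The other 4 sets involved 3 libraries. IL4_IL13_TNFa replicate 4 held the lowest values of its group for Ctsd (1029 CPM, next 1207) and Ctsl (189.9, next 227.5), and IL4_IL13 replicate 4 for Ctsl (673.3, next 788.0). IL4_IL13_TNFa replicate 6 held the lowest Ids value of its group (248.1 CPM, next 267.7).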

How the results depend on the processing

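Each of the 120 member results was recomputed under 27 alternatives, 3240 values in all: 3111 kept their direction and their side of the threshold, 38 lost and 29 gained a call in the same direction, and 62 changed sign. The 44 results that were called and over 1.5-fold changed neither direction nor call in any of 1188 alternatives; 7 smaller called results changed sign, 1 alternative each. By library totals the genes called when TNFa was added became 2313 higher (3999 by TMM) and 6089 lower (3857), and the members called higher against Control became 8 (13). The cause of the changes below was not tested. With IL-4 and IL-13, Tpp1 (main value 0.0013) was -0.0029 with DESeq2 size factors, -0.0420 by library totals, -0.0270 with the stricter filter, -0.0031 in DESeq2 and -0.0071 without the 3 libraries numbered 1; Tfe3 was -0.0185 by library totals, -0.0050 with the stricter filter and -0.0018 without those 3; Ctsa was -0.0010 by library totals; Naglu was 0.0002 and Pld3 0.0324 with no filter. With added TNFa, library totals gave Neu1 -0.1977, Smpd1 -0.1138, Lipa -0.0513, Lamp1 -0.0471, Lamp2 -0.1266, Mcoln1 -0.1943, Tfe3 -0.0130 and Lyz2 -0.0411; the stricter filter gave Neu1 -0.0140 and Mcoln1 -0.0107, only the groups compared gave -0.0049 and -0.0017, and Neu1 was -0.0007 without the 3 numbered 1. Against Control, library totals gave Gaa -0.0724, Gusb -0.0639, Cd68 -0.0869 and Tfe3 -0.0315, no filter gave Ctsa 0.0727, Ctsb 0.0162 and Npc1 0.0021, and Ctsa was 0.0021 with limma voom and 0.0019 with the replicate block. The replicate block added calls for Glb1 (0.1012), Npc2 (-0.1750) and Lamp1 (0.0998) with IL-4 and IL-13 and for Ctsb (-0.1707) with added TNFa, and changed no other member's call. With 1 library left out, values spanned 0 for Tpp1 (-0.0174 to 0.0288), Hexa (-0.0003 to 0.1492), Tfe3 (-0.0386 to 0.0660) and Pld3 (-0.0945 to 0.0278) with IL-4 and IL-13, for Neu1 (-0.0231 to 0.0311) and Mcoln1 (-0.0089 to 0.0393) with added TNFa, and for Ctsa (-0.0404 to 0.0144) against Control. The lowest group median of any member was 7.79 CPM, that of Sgsh in IL4_IL13_TNFa.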
